A study of Mus musculus with 6 samples.

Results

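The proteins of the small subunit of the cytosolic ribosome are described here through 29 of their genes, from Rpsa and Rps2 to Rps29, Fau and the paralog Rps27l. The genes were taken by symbol, and all 29 of 29 were found among the 30803 rows of the files. All 29 also reached a mean of 1 FPKM across the 6 libraries, the filter for testing, as did 12295 rows in all.

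RNA came from mouse bone marrow cells of WT genotype, taken at 5 months of age and labelled as hematopoietic stem cells, the cells that renew the blood. They had been sorted into an MHCII-hi and an MHCII-lo fraction of 3 libraries each (n = 3 in both groups for all values). The sort markers, the strain and the animals behind each library were not given in the sources used here, so the p-values reflect the spread among these 6 libraries alone, and that spread may be technical. The comparison asks how expression differs between the fractions of these mice. The deposited values were read as FPKM, that is fragments per kilobase of transcript corrected for library size, though no header names the unit, and the depth of sequencing is unknown.

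The ribosome translates mRNA into protein. Its small subunit is built from a ribosomal RNA and a set of proteins, binds the initiation factors, scans the mRNA and checks each codon against its tRNA. It has a head and a body, with the mRNA running through the cleft between them. The genes are known for strong and even expression in all cells and for transcripts that begin with a pyrimidine tract, through which their translation responds to growth signals. In human blood, loss of a single copy of one of several of these genes (RPS19, RPS24, RPS26 and RPS10 among them) causes Diamond-Blackfan anaemia, and loss of RPS14 contributes to the anaemia of the 5q deletion syndrome.

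Most of the small subunit genes were lower in MHCII-hi than in MHCII-lo. In limma at an adjusted p under 0.05, 26 of the 29 genes were lower, 2 were higher (Rps10 and Rps26), and 1 (Rps24) did not pass. The highest adjusted p among the 26 lower genes was 3.86e-05, for Rps27l. Of all tested rows, 40.5% were called lower, 27.2% higher and 67.8% in either direction, that is 4982 lower and 3348 higher. With each library scaled to an equal sum, 6234 of all rows were lower and 2541 higher, and of the 29 genes 27 were lower and 1 higher. The median log2 change of the 29 genes was -0.86, with a range from -1.52 to 0.34, while the median of all 12295 tested rows was -0.08. A change is MHCII-hi minus MHCII-lo on the log2(FPKM + 1) scale. A fall of 1 or more on that scale, with an adjusted p under 0.05 in limma, was seen for 11 of the 29 genes and for 1.46% of all rows. The libraries of the groups did not overlap for any of the 29 genes. All MHCII-hi libraries lay below all MHCII-lo libraries for 27 genes and above them for 2, against 43.3% and 29.6% of all rows. In sorted bulk cells, fewer cells of a type and less RNA per cell cannot be told apart.

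**Figure D1:**
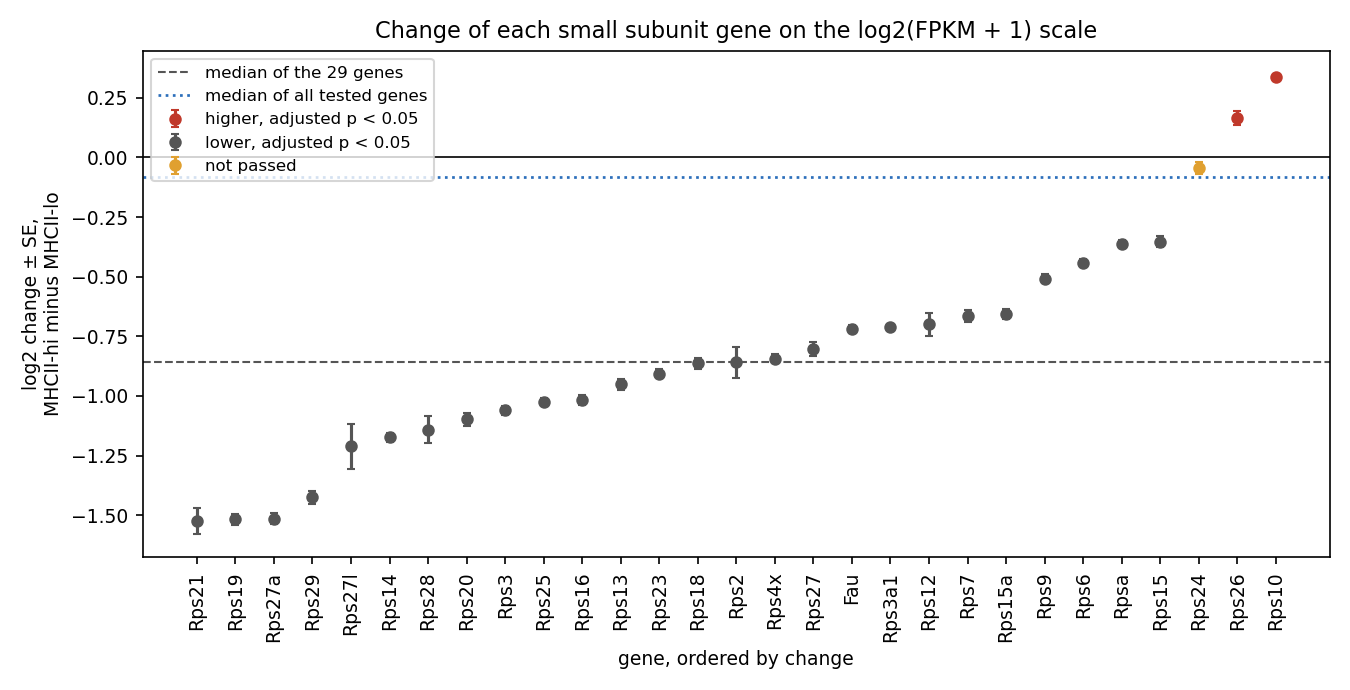
Log2 change of each of the 29 small subunit genes, MHCII-hi minus MHCII-lo, on the log2(FPKM + 1) scale, with bars for the SE of the limma fit (3 libraries per group). Rps10 and Rps26 lie above 0, Rps24 lies just below 0 and near the dotted median of all tested genes (-0.08), and the other 26 genes lie between -1.52 and -0.35 around a median of -0.86.

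Rps10 moved most clearly against the rest. Its protein sits at the edge of the head near the entry of the mRNA channel, and it is ubiquitylated when ribosomes stall. Rps10 (GRCm38 chromosome 17, 27630418 to 27636669, minus strand, protein-coding) had 140.54, 140.87 and 141.54 FPKM in MHCII-hi libraries, against 111.03, 112.06 and 111.30 FPKM in MHCII-lo libraries. The MHCII-hi values spanned 1 FPKM and lay above every MHCII-lo value, with means of 141 ± 0.510 and 111 ± 0.534 FPKM (SD, n = 3 each). The log2 change was 0.34 ± 0.01 (SE; limma adjusted p = 2.45e-06), and it passed as higher in all 19 alternatives, with values from 0.22 to 0.62.

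Rps26, whose protein lines the exit of the mRNA channel, was the other gene that was higher. Rps26 (chromosome 10, 128624534 to 128626747, minus strand) had 250.11, 230.21 and 236.48 FPKM in MHCII-hi libraries, against 213.07, 212.46 and 212.96 FPKM in MHCII-lo libraries. The MHCII-hi libraries were more spread, with a SD of 10.2 FPKM against 0.325 FPKM in MHCII-lo, and the groups were still apart. The log2 change was 0.17 ± 0.03 (SE; limma adjusted p = 0.00239). It was 0.04 and did not pass when each library was scaled to an equal sum (limma adjusted p = 0.222).

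Rps24, a protein of the body, was nearly level. Rps24 (chromosome 14, 24487125 to 24496959, plus strand) had 127.92, 134.20 and 135.23 FPKM in MHCII-hi libraries, against 135.59, 136.02 and 138.02 FPKM in MHCII-lo libraries. The highest MHCII-hi value fell short of the lowest MHCII-lo value by less than 1 FPKM. The log2 change was -0.04 ± 0.02 (SE) and did not pass (limma adjusted p = 0.152). Its sign depended on the processing. The change was 0.12 with the dependence on transcript length and GC content taken out of each library (limma adjusted p = 0.00401). At an equal sum it was -0.16 (limma adjusted p = 0.000805). The length was that of 1 annotated transcript, which for Rps24 had 1613 bases against 399 coding bases.

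The values of these genes have to be read beside their copies in the genome. Ribosomal protein genes have many processed pseudogenes, inserted copies of the spliced mRNA, and reads from a near-identical copy cannot be placed with certainty. The treatment of shared reads was not given in the sources used here. Over the coding sequence, Rps10 and the pseudogene Rps10-ps2 (chromosome 16, 20822145 to 20822640, minus strand) were identical at 490 of 495 bases. Rps26 and the transcribed pseudogene Rps26-ps1 (chromosome 8, 107439131 to 107439579, minus strand) were identical at 343 of 345 bases. Rps27 and the retrogene Rps27rt, annotated as protein-coding (chromosome 9, 114982366 to 114982739, minus strand), were identical at all 252 bases. Stretches of 60 coding bases from GENCODE M21 transcripts on GRCm38 are shown 5′ to 3′ to make the likeness visible, with the differing bases in capitals.
Rps10: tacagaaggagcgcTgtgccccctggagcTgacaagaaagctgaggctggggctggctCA
Rps10-ps2: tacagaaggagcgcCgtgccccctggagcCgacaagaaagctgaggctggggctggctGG
Rps26: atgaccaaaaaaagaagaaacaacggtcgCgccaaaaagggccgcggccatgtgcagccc
Rps26-ps1: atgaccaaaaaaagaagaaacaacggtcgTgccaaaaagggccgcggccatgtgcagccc
Rps27: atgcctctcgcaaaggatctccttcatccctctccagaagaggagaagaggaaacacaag
Rps27rt: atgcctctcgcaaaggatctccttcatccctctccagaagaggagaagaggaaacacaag

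The row of Rps10-ps2 stood above that of Rps10 itself. It had 520.52, 506.46 and 525.50 FPKM in MHCII-hi libraries, against 315.15, 312.13 and 301.43 FPKM in MHCII-lo libraries, a log2 change of 0.74 ± 0.02 (SE; limma adjusted p = 5.26e-07). The groups were well apart, and the direction was that of Rps10. Summed with all rows that hold a 50-base coding window of Rps10, the family had 672.55, 658.61 and 679.13 FPKM in MHCII-hi libraries, against 440.97, 438.37 and 430.01 FPKM in MHCII-lo libraries. The log2 change of the sum was 0.62 ± 0.02 (SE; limma adjusted p = 3.24e-07). The Rps10 row itself made up 21.04% of the sum in MHCII-hi and 25.5% in MHCII-lo.

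Rps26-ps1 was uneven between libraries, with 15.23, 58.78 and 71.41 FPKM in MHCII-hi libraries, against 8.19, 6.62 and 15.41 FPKM in MHCII-lo libraries. Its groups overlapped, since MHCII-hi replicate 1 lay below MHCII-lo replicate 3, and its log2 change was 1.98 ± 0.59 (SE; limma adjusted p = 0.0213). In MHCII-hi replicate 1, Rps26 had its highest value and Rps26-ps1 its lowest of the 3 libraries. The Rps26 family summed to 268.85, 292.59 and 309.69 FPKM in MHCII-hi libraries, against 225.09, 224.26 and 232.79 FPKM in MHCII-lo libraries. The sums did not overlap, and their log2 change was 0.35 ± 0.05 (SE; limma adjusted p = 0.000725). For Rps24 the summed change was -0.01 ± 0.02 (SE; limma adjusted p = 0.827).

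For Rps27, the gene and its identical retrogene went opposite ways. Rps27, a zinc-finger protein of the body, had 201.71, 189.06 and 188.02 FPKM in MHCII-hi libraries, against 344.30, 332.22 and 335.44 FPKM in MHCII-lo libraries, a log2 change of -0.80 ± 0.03 (SE; limma adjusted p = 1.35e-06). Rps27rt had 98.72, 129.04 and 133.11 FPKM in MHCII-hi libraries, against 70.56, 75.43 and 93.41 FPKM in MHCII-lo libraries, and was higher by 0.58 ± 0.14 (SE; limma adjusted p = 0.00922). The coding bases of both rows are the same, so the split of reads from them is uncertain and the sum is the safer reading. The bases outside the coding sequence were not compared. The Rps27 family summed to 302.71, 319.79 and 323.40 FPKM in MHCII-hi libraries, against 419.12, 410.36 and 432.30 FPKM in MHCII-lo libraries. The sums did not overlap, and the fall was about -0.41 ± 0.03 (SE; limma adjusted p = 2.89e-05), smaller than that of the Rps27 row.

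Rps2, a protein at the entry of the mRNA channel, had the most copies of the 29 genes. Its row had 232.61, 275.01 and 274.78 FPKM in MHCII-hi libraries, against 458.92, 480.65 and 478.27 FPKM in MHCII-lo libraries, a log2 change of -0.86 ± 0.07 (SE; limma adjusted p = 3.41e-05). MHCII-hi replicate 1 stood below the other MHCII-hi libraries, while the summed copies of Rps2 were highest there. Rps2-ps13 had 48.23, 36.13 and 32.58 FPKM in MHCII-hi libraries, against 31.76, 29.07 and 28.37 FPKM in MHCII-lo libraries. With 54 rows of copies added, the Rps2 family summed to 521.85, 494.28 and 476.02 FPKM in MHCII-hi libraries, against 667.83, 660.45 and 661.94 FPKM in MHCII-lo libraries. The sums still did not overlap, but the log2 change shrank to -0.42 ± 0.03 (SE; limma adjusted p = 3.45e-05).

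**Figure D2:**
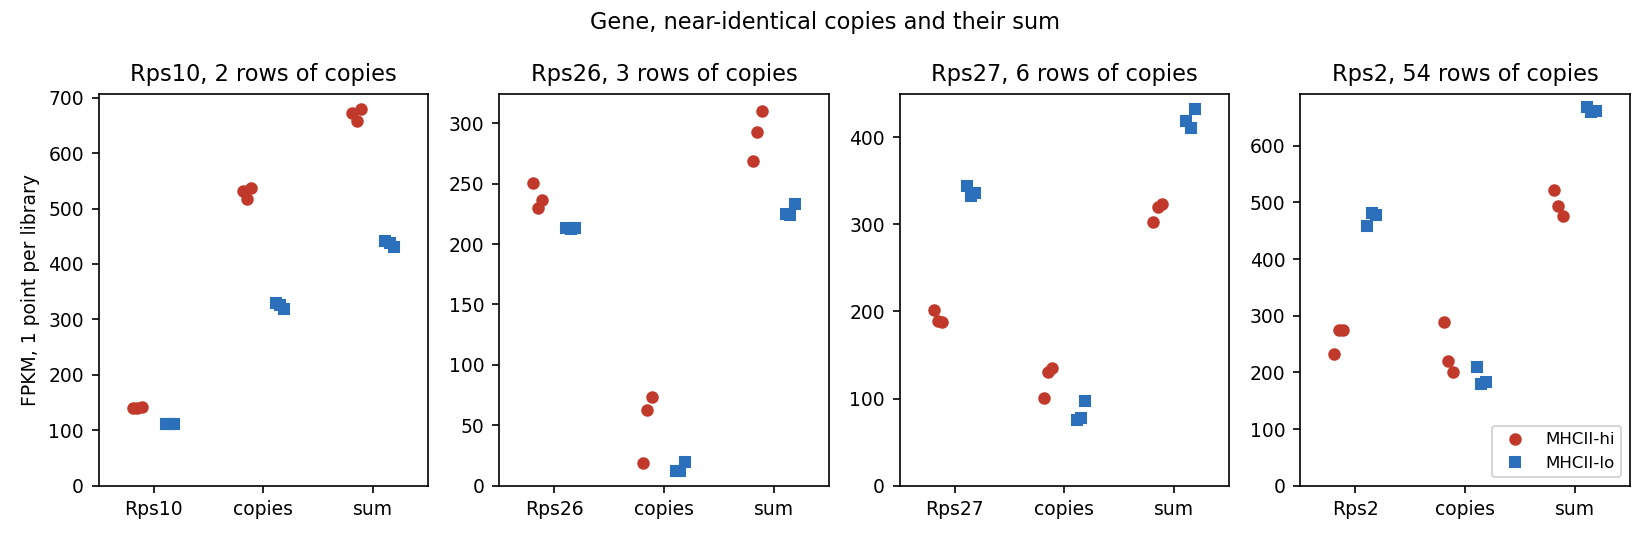
FPKM per library of the row of the gene, of the rows of its copies added together, and of their sum, for Rps10, Rps26, Rps27 and Rps2. MHCII-hi is shown as circles on the left and MHCII-lo as squares on the right of each pair. A copy is any row that holds at least 1 of the 50-base coding windows of the gene, so not every copy is near-identical. The summed values of Rps10 and Rps26 are higher in all 3 MHCII-hi libraries and those of Rps27 and Rps2 lower, while the copies of all 4 genes are on average higher in MHCII-hi.

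Across the 29 genes, a median of 90.1% of the 50-base windows of the coding sequence occurred in another annotated gene, and for 10 genes all of them did. The lowest share was 8.09%, for Rps3. For Rps6, Rps12, Rps13, Rps16, Rps28, Rps29 and Fau, a single other measured row held every window. The split between rows is uncertain for these genes as it is for Rps27. Summing each gene with its copies left 2 genes higher and 26 lower. Pearson's r of the log2 change with the share of windows was 0.06 and Spearman's rho was -0.04. The 29 genes are not independent samples. The share of windows does not measure the reads that go to copies. The part of shared reads in the changes was not tested. Rows named as pseudogenes of small subunit genes numbered 101, of which 64 were tested. Of these, 44 were lower, 5 were higher (Rps10-ps2, Rps26-ps1, Rps2-ps8, Rps2-ps10 and Rps2-ps13) and 15 did not pass, with a median log2 change of -0.57. They took 0.528 ± 0.00590% of the summed FPKM in MHCII-hi and 0.701 ± 0.0304% in MHCII-lo (SD, n = 3 each).

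Taken as single rows, the largest falls were those of Rps21, Rps19, Rps27a, Rps29 and Rps27l. Rps21, a small protein of the body (chromosome 2, 180257377 to 180258445, plus strand), had 94.52, 81.51 and 92.74 FPKM in MHCII-hi libraries, against 258.89, 263.77 and 254.80 FPKM in MHCII-lo libraries. Every MHCII-hi library was far below every MHCII-lo library, and the mean was 2.89 times lower in MHCII-hi (log2 change -1.52 ± 0.05, SE; limma adjusted p = 1.07e-06). Rps19, a head protein whose human gene is mutated in Diamond-Blackfan anaemia (chromosome 7, 24884371 to 24889806, plus strand), had 35.08, 33.82 and 35.49 FPKM in MHCII-hi libraries, against 101.74, 101.36 and 101.22 FPKM in MHCII-lo libraries. The 3 libraries of a group differed by less than 2 FPKM, and the mean was 2.92 times lower in MHCII-hi (log2 change -1.52 ± 0.02, SE; limma adjusted p = 3.50e-08).

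Rps27a, which is made as a fusion with ubiquitin and is a source of free ubiquitin in the cell, had 146.19, 139.90 and 147.49 FPKM in MHCII-hi libraries, against 409.98, 420.06 and 414.04 FPKM in MHCII-lo libraries. The groups were apart by more than 250 FPKM at their nearest values, and the log2 change was -1.51 ± 0.02 (SE; limma adjusted p = 3.50e-08). Summed with its copies the fall of Rps27a was smaller, at -1.08 ± 0.06 (SE; limma adjusted p = 6.12e-06). Rps29, a small zinc-binding protein of the head, had 122.33, 124.99 and 127.24 FPKM in MHCII-hi libraries, against 324.85, 339.03 and 347.56 FPKM in MHCII-lo libraries, with a log2 change of -1.43 ± 0.03 (SE; limma adjusted p = 9.28e-08). Fau, the other fusion gene of the group, joined to the ubiquitin-like FUBI, had a smaller log2 change than Rps27a. It had 241.39, 243.28 and 237.18 FPKM in MHCII-hi libraries, against 395.18, 394.30 and 400.98 FPKM in MHCII-lo libraries, and a log2 change of -0.72 ± 0.02 (SE).

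Rps27l encodes a close paralog of Rps27 and is known as a target of p53. It was the least expressed of the 29 genes in both fractions, with 33.70, 26.38 and 34.34 FPKM in MHCII-hi libraries, against 74.08, 72.57 and 74.33 FPKM in MHCII-lo libraries. MHCII-hi replicate 2 was the lowest library, and the groups did not overlap (log2 change -1.21 ± 0.09, SE; limma adjusted p = 3.86e-05). Of its coding windows 48.3% occurred in another gene, and the sum with its copies gave the same fall of -1.21. The mean of Rps27, at 193 FPKM in MHCII-hi and 337 FPKM in MHCII-lo, was well above that of Rps27l, at 31.5 FPKM in MHCII-hi and 73.7 FPKM in MHCII-lo.

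By place in the subunit, 12 of the genes encode proteins of the head and 17 proteins of the body. Of the 12 head genes 11 were lower and 1 was higher (Rps10), with a median log2 change of -1.04. Of the 17 body genes 15 were lower, 1 was higher (Rps26) and 1 did not pass (Rps24), with a median of -0.72. The ranges overlapped widely, and no test was made of the difference.

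Among the other head proteins, the falls lay mostly near 1 on the log2 scale. Rps28, which lies at the exit of the mRNA channel, had 52.95, 44.68 and 48.77 FPKM in MHCII-hi libraries, against 109.48, 106.41 and 109.90 FPKM in MHCII-lo libraries (log2 change -1.14). Rps20, a further target of ubiquitylation at stalled ribosomes, had 49.01, 46.88 and 46.45 FPKM in MHCII-hi libraries, against 102.21, 101.28 and 104.73 FPKM in MHCII-lo libraries (-1.10). For both genes the groups were more than 50 FPKM apart. The sum with the copies had a log2 change of -0.81 for Rps28 and of -1.24 for Rps20, against -1.08 for the sum of Rps27a and -1.21 for that of Rps27l. Rps3, which lines the entry of the mRNA channel and has known roles in DNA repair, had 109.19, 110.96 and 107.68 FPKM in MHCII-hi libraries, against 231.72, 231.25 and 224.37 FPKM in MHCII-lo libraries (-1.06). Rps3 shares the fewest coding windows with other genes (8.09%), and with its copies added the change was again -1.06.

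Rps25, which viral internal entry sites need, had 125.11, 126.75 and 125.77 FPKM in MHCII-hi libraries, against 257.47, 255.69 and 258.25 FPKM in MHCII-lo libraries (-1.02). Rps25 overlaps the neighbouring gene Trappc4 on the other strand, and the use of strand in counting was not given in the sources used here. Rps16, whose tail reaches the tRNA in the P site, had 215.92, 216.21 and 216.50 FPKM in MHCII-hi libraries, against 432.40, 452.13 and 430.17 FPKM in MHCII-lo libraries (-1.02). Rps18, a contact of the large subunit, had 145.35, 142.57 and 137.97 FPKM in MHCII-hi libraries, against 259.67, 257.60 and 260.08 FPKM in MHCII-lo libraries (-0.86). These 3 genes were thus near the middle of the 29.

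Rps12, of the beak of the head, had 136.92, 140.50 and 137.47 FPKM in MHCII-hi libraries, against 207.99, 229.76 and 239.24 FPKM in MHCII-lo libraries (-0.70). Its MHCII-lo libraries were the most spread of the group, and with 22 rows of copies added its change was -0.90. Its copy Rps12-ps3 holds every coding window and had 245.04, 234.15 and 248.80 FPKM in MHCII-hi libraries, against 486.54, 435.10 and 434.21 FPKM in MHCII-lo libraries. These values were above those of Rps12, which made up 29.9% of the sum in MHCII-hi and 26.1% in MHCII-lo. Rps15, which in human cells is needed for export of the subunit from the nucleus, had 573.35, 546.11 and 566.25 FPKM in MHCII-hi libraries, against 708.82, 710.35 and 734.45 FPKM in MHCII-lo libraries. Its log2 change of -0.35 ± 0.02 (SE; limma adjusted p = 1.63e-05) was the smallest of the 26 falls.

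Among the body proteins, Rps14 and Rps13 had the largest falls of single rows after Rps21 and Rps27l. Rps14, a platform protein tied to the 5q deletion syndrome, had 121.97, 121.52 and 124.82 FPKM in MHCII-hi libraries, against 275.93, 275.01 and 283.24 FPKM in MHCII-lo libraries (-1.17). Rps13, which bridges to the large subunit, had 74.09, 76.05 and 72.82 FPKM in MHCII-hi libraries, against 143.02, 147.44 and 143.34 FPKM in MHCII-lo libraries (-0.95). The mean in MHCII-hi was 0.442 of that in MHCII-lo for Rps14 and 0.514 for Rps13, and the sum of Rps13 with its copies had a log2 change of -0.81. Rps23, which lies at the decoding centre, had 285.65, 289.04 and 294.73 FPKM in MHCII-hi libraries, against 531.39, 551.17 and 549.56 FPKM in MHCII-lo libraries (-0.91). Rps4x, an X-linked gene, had 487.93, 507.63 and 500.10 FPKM in MHCII-hi libraries, against 887.04, 902.72 and 895.75 FPKM in MHCII-lo libraries (-0.84). Rps23, Rps4x, Rps2 and Rps18 were close to the median change of the 29.

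The remaining body genes fell by less than the median. Rps3a1 had the highest level of the 29 in both fractions, with 867.88, 882.58 and 875.33 FPKM in MHCII-hi libraries, against 1428.71, 1427.50 and 1439.74 FPKM in MHCII-lo libraries (-0.71). Rps7, known to bind the p53 regulator MDM2, had 183.96, 178.60 and 172.22 FPKM in MHCII-hi libraries, against 286.01, 282.21 and 281.47 FPKM in MHCII-lo libraries (-0.67). Rps15a had 61.75, 63.95 and 62.22 FPKM in MHCII-hi libraries, against 97.85, 99.06 and 100.81 FPKM in MHCII-lo libraries (-0.66). These 3 genes differ widely in level and fell by nearly the same amount.

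Rps9, which lies at the mRNA entry and affects decoding fidelity, had 231.68, 229.15 and 223.49 FPKM in MHCII-hi libraries, against 323.11, 326.96 and 324.19 FPKM in MHCII-lo libraries (-0.51). Rps6, the protein phosphorylated by the S6 kinases on growth signals, had 579.91, 596.38 and 597.11 FPKM in MHCII-hi libraries, against 802.20, 817.57 and 794.67 FPKM in MHCII-lo libraries (-0.44). Rpsa, also known as the laminin receptor, had 417.42, 421.17 and 428.95 FPKM in MHCII-hi libraries, against 534.30, 549.60 and 546.23 FPKM in MHCII-lo libraries (-0.36). With Rps15 these were the 4 smallest falls of single rows (with copies summed, Rps2 and Rps27 fell by less than Rps9 and Rps6), and 3 of the 4 are among the 5 most abundant of the 29 genes in MHCII-hi.

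**Figure D3:**
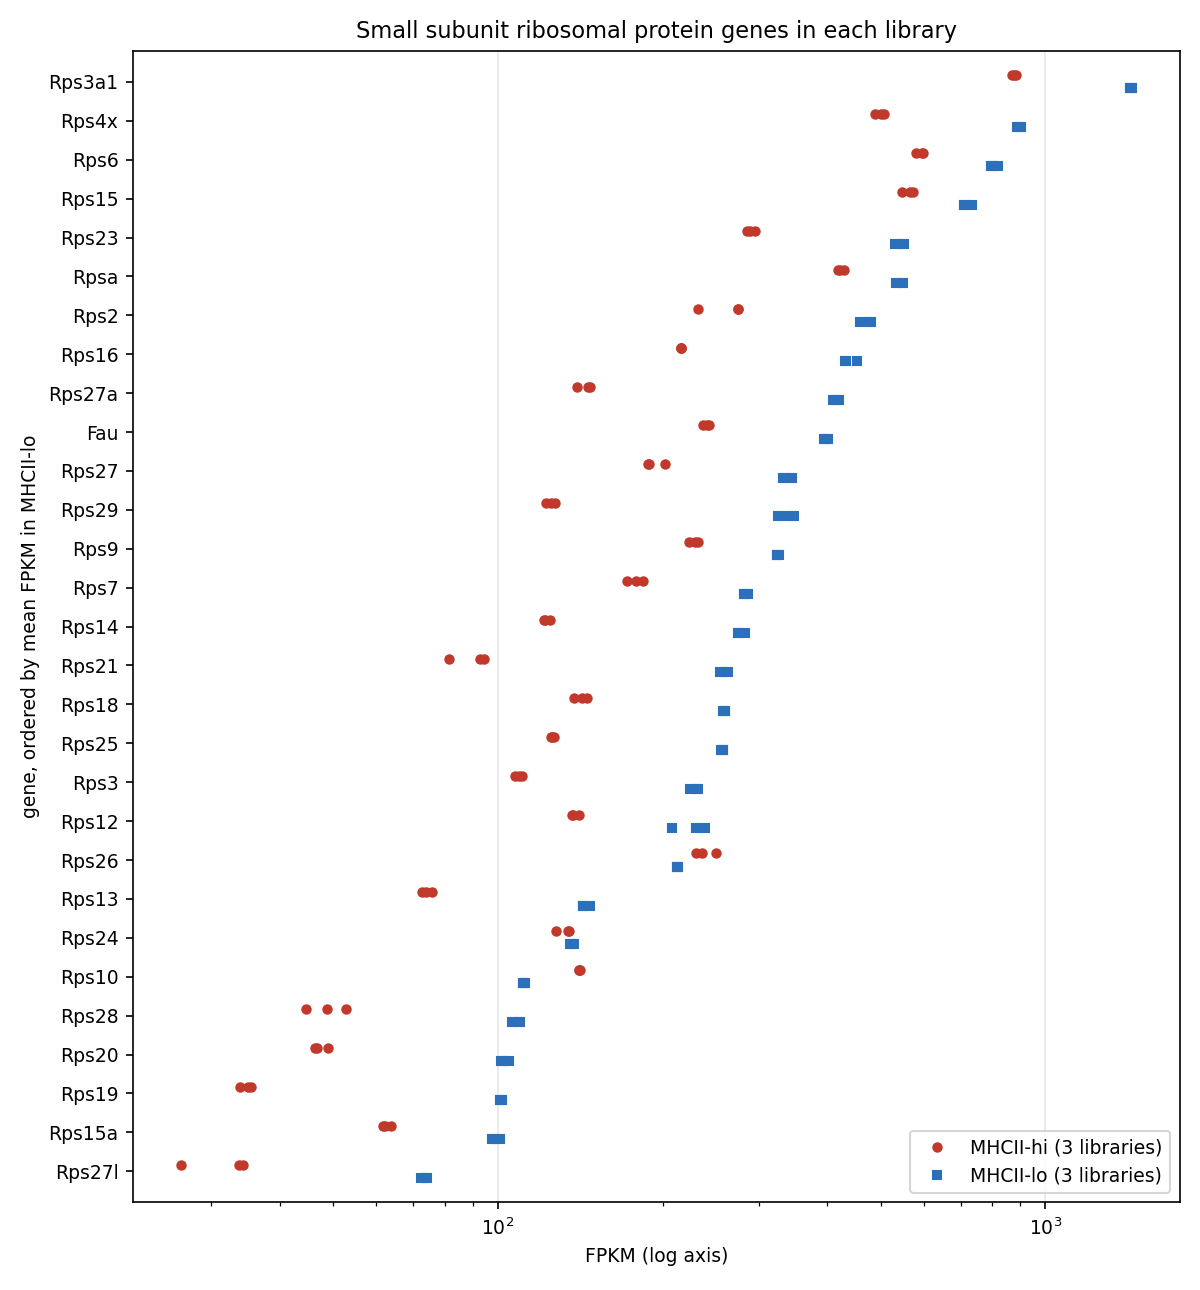
FPKM (log axis) of the 29 small subunit genes in the 3 MHCII-hi libraries (circles, upper of each pair) and the 3 MHCII-lo libraries (squares, lower), ordered by the mean in MHCII-lo. The circles lie left of the squares for 27 genes and right of them for Rps26 and Rps10.

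Levels ranged 27.8-fold across the 29 genes in MHCII-hi and 19.4-fold in MHCII-lo, compared per transcript length. The order of levels was largely kept, with a Spearman's rho of 0.88 between the group means over the 29 genes. Rps3a1 was first in both fractions, and Rps3a1, Rps6, Rps15 and Rps4x were the top 4 in both. Rps26 had rank 9 in MHCII-hi and rank 21 in MHCII-lo, and Rps10 rank 16 in MHCII-hi and rank 24 in MHCII-lo. Rps21 had rank 23 in MHCII-hi and rank 16 in MHCII-lo, and Rps29 rank 20 in MHCII-hi and rank 12 in MHCII-lo. The median CV between libraries was 1.99% in MHCII-hi and 1.48% in MHCII-lo, and the highest were 14.1% for Rps27l in MHCII-hi and 7.10% for Rps12 in MHCII-lo.

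Together the 29 genes had 6346, 6360 and 6389 summed FPKM in MHCII-hi libraries, against 10447, 10588 and 10589 summed FPKM in MHCII-lo libraries. This was 1.91 ± 0.00651% of all FPKM in MHCII-hi and 3.44 ± 0.0284% in MHCII-lo (SD, n = 3 each), a ratio of 0.555. Immunoglobulin segments took 8.30 ± 0.0383% of all FPKM in MHCII-hi and 0.415 ± 0.0368% in MHCII-lo. With those segments left out of the denominator, the shares were 2.08% in MHCII-hi and 3.45% in MHCII-lo, a ratio of 0.603. Mitochondrially encoded genes took 12.5% in MHCII-hi and 8.87% in MHCII-lo, and without them the shares were 2.18% in MHCII-hi and 3.77% in MHCII-lo. The difference between the fractions was thus present under each denominator.

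To name the genes that moved against the rest, each library was centred on the median log2(FPKM + 1) of the 29 genes, which was 7.17 ± 0.02 in MHCII-hi and 8.12 ± 0.02 in MHCII-lo (SD, n = 3 each). The median is the level of the middle gene of each library, which need not be the same gene in both groups. Relative to that median, 15 genes were above, 10 were below and 4 (Rps16, Rps13, Rps23 and Rps2) did not pass in limma. The centre is a median of levels, so it need not split the changes evenly. Rps18 was called above (0.09), although its log2 change of -0.86 was close to the median change. Of all tested rows 95.1% were above and 0.756% below, so the size and the stability of the difference matter more than the count. Of the 29 genes, 13 passed on the same side under all 12 alternatives, among them the mean of the 29, the large subunit genes as the centre, sums with the copies and each library left out.

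The 5 genes above were Rps10 (1.29 ± 0.02, SE; limma adjusted p = 1.18e-08), Rps26 (1.12 ± 0.02), Rps24 (0.91 ± 0.03), Rps15 (0.60 ± 0.02) and Rpsa (0.59 ± 0.03). Over the alternatives Rps10 stayed between 0.89 and 1.31, Rps26 between 0.72 and 1.18 and Rps24 between 0.51 and 0.95. Rps15 and Rpsa came closer to the centre, with lowest values of 0.16 and 0.15. The 8 genes below were Rps21 (-0.57 ± 0.05), Rps19 (-0.56 ± 0.03), Rps27a (-0.56 ± 0.03), Rps29 (-0.47 ± 0.03), Rps14 (-0.22 ± 0.02), Rps28 (-0.19 ± 0.05), Rps20 (-0.14 ± 0.02) and Rps3 (-0.11 ± 0.03). Rps21, Rps19, Rps27a and Rps29 were at -0.44 or lower in each alternative. The large subunit centre put 22 genes below and the sums with copies 20, so a place below tells less there. With copies summed, Rps28 had a log2 change of -0.81, equal to the median change of the sums. Its place below under that setting thus reflects the centre and not a larger fall than the rest.

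**Figure D4:**
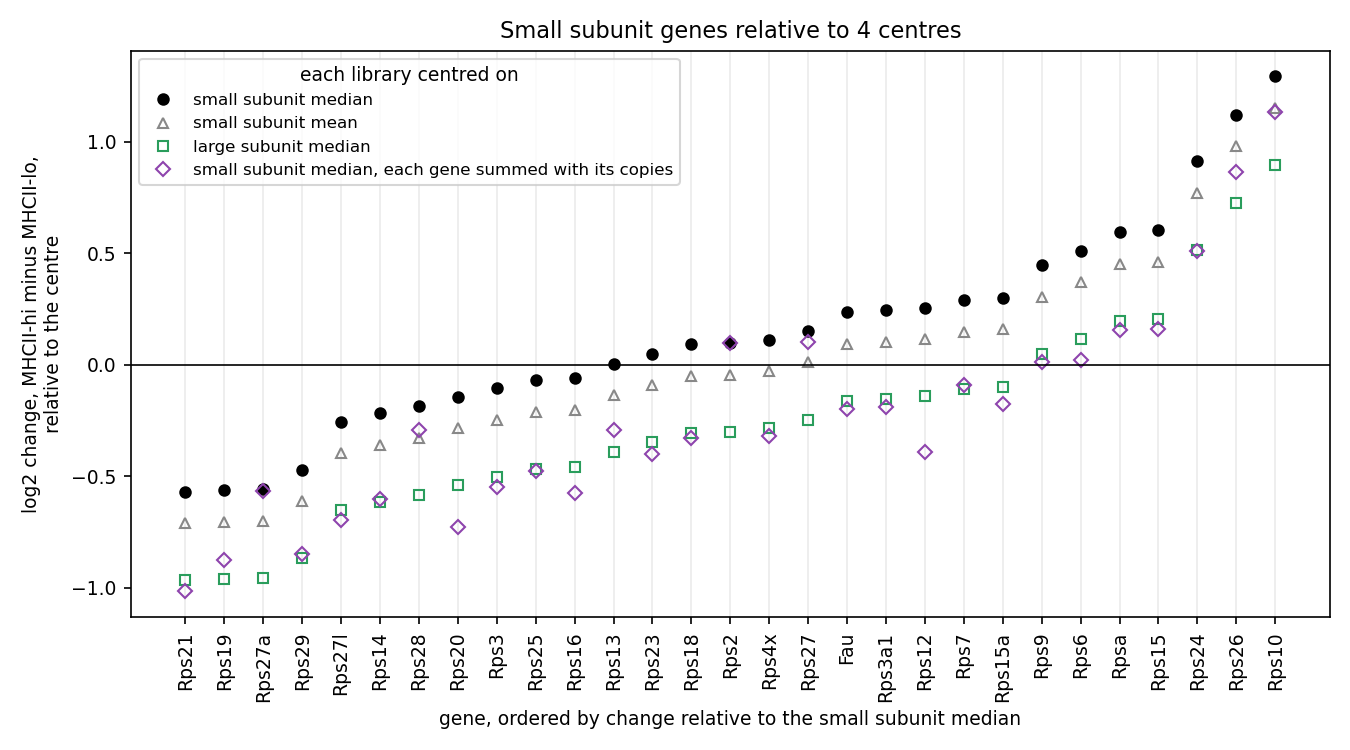
Log2 change of the 29 small subunit genes, MHCII-hi minus MHCII-lo, relative to the centre of each library, which was the small subunit median (filled circles), the small subunit mean, the large subunit median or the small subunit median after each gene was summed with its copies. Rps10, Rps26, Rps24, Rps15 and Rpsa lie above 0 and Rps21, Rps19, Rps27a, Rps29, Rps14, Rps28, Rps20 and Rps3 below 0 under all 4 centres.

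Across the 29 genes, Pearson's r of the log2 change was 0.27 with coding length (Spearman's rho 0.34) and 0.06 with GC content (rho 0.13), as a description over genes that share libraries. When the dependence on length and GC content over all rows was taken out of each library, the median log2 change of the 29 genes was -0.63, against -0.03 for all tested rows, and 26 genes were again lower. Of the 29 genes, 8 hold an annotated snoRNA gene within their bounds (Rps20, Rps3, Rps16, Rps13, Rps2, Rps3a1, Rps12 and Rpsa), as introns of ribosomal protein genes often do. All 8 were lower, with a median log2 change of -0.91, and the other 21 genes had a median of -0.84.

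Because these genes are known for a pyrimidine tract at the start of the transcript, the annotated starts were read. RefSeq promoters on GRCm38.p6 were matched for 25 of the 29 genes, with Rps14, Rps20, Rps27a and Rps29 unmatched. Where a gene had several annotated starts, the start with the longest run at it was kept, then the longest near it. This choice was made alike for the 25 and for all genes, so the share with a run at the start is that of the best start. The share with a run near the start is that of the same start, which need not have the longest run near it. A run of at least 5 bases of C or T, beginning with a C at the annotated start kept, was found on the transcript strand for 7 of the 25 (28.0%) and for 813 of 27025 genes in the table (3.01%). With the C anywhere within 20 bases of the start, such a run was found for 20 of the 25 (80.0%) and for 50.5% of all genes. The starts of Rps10, Rps26 and Rps24, of the 2 genes with the largest falls and of Rps6, a gene with a small fall, follow as examples. Each has 40 bases before the start and 20 from it onward, 5′ to 3′, with the longest such run in capitals.
Rps10, chr17:27635225-27635284, minus strand: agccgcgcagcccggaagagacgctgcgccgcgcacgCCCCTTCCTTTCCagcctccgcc
Rps26, chr10:128626487-128626546, minus strand: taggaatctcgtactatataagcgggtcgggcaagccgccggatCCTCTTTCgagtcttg
Rps24, chr14:24490638-24490697, plus strand: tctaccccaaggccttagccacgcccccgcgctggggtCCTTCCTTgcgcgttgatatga
Rps21, chr2:180257339-180257398, plus strand: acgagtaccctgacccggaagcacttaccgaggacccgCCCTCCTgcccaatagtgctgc
Rps19, chr7:24884873-24884932, plus strand: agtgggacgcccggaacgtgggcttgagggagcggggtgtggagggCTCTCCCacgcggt
Rps6, chr4:86857348-86857407, minus strand: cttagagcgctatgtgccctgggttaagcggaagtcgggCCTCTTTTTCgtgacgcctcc
The 5 matched genes without such a run within 20 bases of the start kept were Rps25, Rps28, Rps3a1, Rps4x and Rpsa, which are not among the examples. The median log2 change was -0.72 for the 7 genes with a run at the annotated start and -0.85 for the other 18 matched genes. The annotated start may differ from the start used in these cells, which was not measured.

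Other genes of translation were set beside the 29. Of 9 tested rows listed for the small subunit outside the 29, 7 were lower, 1 was higher and 1 did not pass. Their log2 changes ran from -0.97 to 0.58, with a median of -0.56. The higher row was Rps27rt (0.58), the retrogene with the coding bases of Rps27, which is already part of the Rps27 sum. Rack1, a scaffold protein of the small subunit, was lower, with a log2 change of -0.56. The large subunit genes also fell, with 46 of 49 tested lower, 1 higher and 2 not passed, and a median log2 change of -0.65. The higher one, Rpl35, changed by only 0.06 (limma adjusted p = 0.0399). The largest falls there were Rpl17 (-1.87), Rpl22l1 (-1.72) and Rplp2 (-1.38). Large subunit genes took 2.91% of all FPKM in MHCII-hi and 4.80% in MHCII-lo, a ratio of 0.606. The difference between the medians of the lists was not tested.

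The small subunit of the mitochondrial ribosome had 28 of 33 tested genes lower, 5 not passed and a median of -0.42, with Mrps18c (-1.20), Mrps14 (-1.18) and Chchd1 (-1.04) in front. Factors that assemble the small subunit in the nucleolus and cytoplasm had 58 of 66 lower, 8 not passed and a median of -0.32. The largest falls were Fcf1 (-0.89), Imp3 (-0.86) and Nop9 (-0.66), all parts of early processing of the ribosomal RNA precursor. Initiation factors that bind the small subunit had 28 of 29 lower and a median of -0.39, led by Mcts1 (-0.90), Eif3m (-0.82) and Eif1ax (-0.79). Eif3h was the exception, with 140 FPKM in MHCII-hi and 138 FPKM in MHCII-lo.

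The kinases of ribosomal protein S6 and their relatives had no common direction. Of 8 tested, Rps6kb2, Rps6ka2 and Rps6ka1 were higher, Rps6ka4 and Rps6ka5 were lower and 3 did not pass. Rps6kb2, an S6 kinase of the mTOR pathway, had 11.04, 11.35 and 11.33 FPKM in MHCII-hi libraries, against 5.89, 6.02 and 6.99 FPKM in MHCII-lo libraries (log2 change 0.75 ± 0.06, SE; limma adjusted p = 4.70e-05). The main S6 kinase gene Rps6kb1 had 7.63 FPKM in MHCII-hi and 7.17 FPKM in MHCII-lo and did not pass (limma adjusted p = 0.314).

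**Figure D5:**
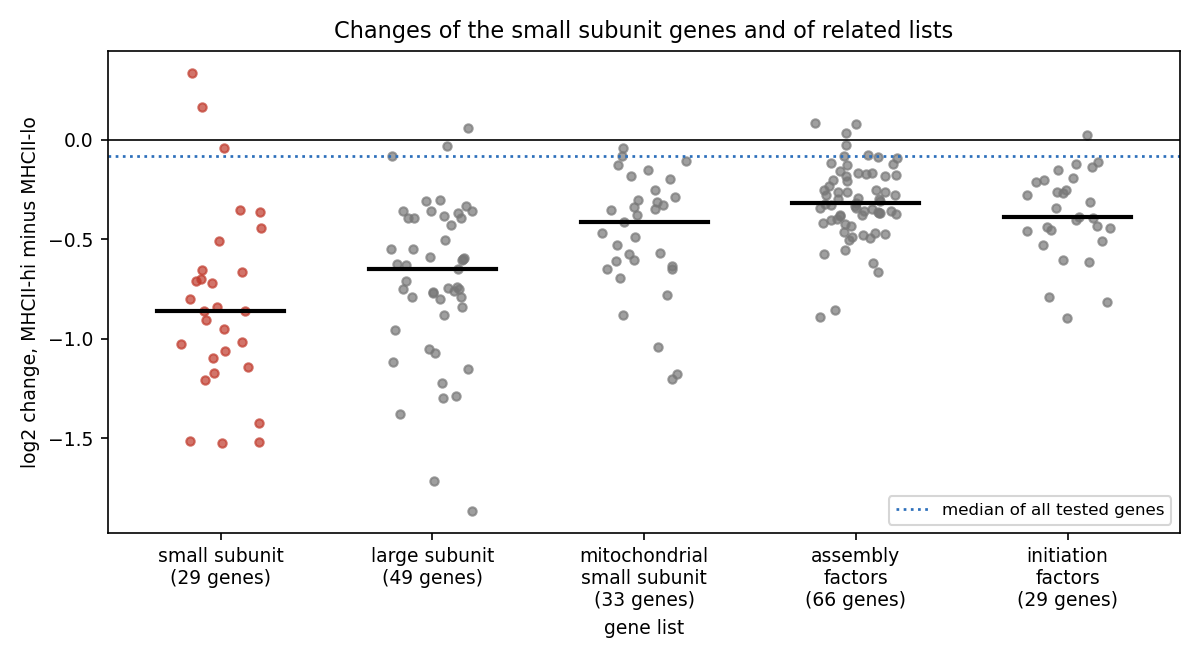
Log2 change, MHCII-hi minus MHCII-lo, of each tested gene in the 29 small subunit genes and 4 related lists, with a bar at the median of the list and a dotted line at the median of all tested genes. The medians are -0.86, -0.65, -0.42, -0.32 and -0.39 from left to right, against -0.08 for all tested genes.

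The fractions also differed in markers of cell type. The 5 MHC class II genes summed to 858.87 to 859.51 FPKM in MHCII-hi libraries and to 72.16 to 74.79 FPKM in MHCII-lo libraries. Of 7 tested stem cell markers, 5 were higher (Gata2 and Ly6a among them) and Kit and Cd34 did not pass, with a median log2 change of 0.75. The 10 listed stem cell markers summed to 73.0 to 76.2 FPKM in MHCII-hi libraries and 43.6 to 44.1 FPKM in MHCII-lo libraries. Kit stood at 10.9 FPKM in both fractions, and Mecom, Procr and Slamf1 were below 1 FPKM in every library. All 8 B cell markers were higher in MHCII-hi, with sums of 7154 to 7300 FPKM against 230 to 287 FPKM in MHCII-lo. The 5 plasma cell markers were all higher as well, with means of 419 FPKM in MHCII-hi and 73.9 FPKM in MHCII-lo, as were all 4 tested dendritic cell markers. All 5 erythroid markers were lower, with sums of 236 to 252 FPKM in MHCII-hi and 354 to 362 FPKM in MHCII-lo. Of the 6 neutrophil markers 3 were higher and 2 lower, with means of 19541 FPKM in MHCII-hi and 14459 FPKM in MHCII-lo. Of the 5 cycling markers 4 were lower and Mki67 was higher. The part of these differences in the fall of the small subunit genes was not tested.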

How the data were processed

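Stranded poly(A) libraries were made from sorted cells, per the labels' protocols, and the tools fastp, HISAT2, StringTie with the builds GRCm38 or mm10 appear in the submitters' processing notes, without versions. Each deposited file holds 1 value per row, and the rows are named by gene symbol. The authors' deposited values were taken as FPKM, from the values themselves, since the file headers give no unit. FPKM is scaled to library size, so abundant transcripts that rise lower all the others. Symbols that occurred more than once numbered 67, with 70 extra rows kept under their own row names.

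Groups follow the cell subtype given in the labels. Rows with a mean of at least 1 FPKM were tested on log2(FPKM + 1) in limma 3.58.1 under R 4.3.3 (two-sided, moderated variances with a trend on the mean, Benjamini-Hochberg adjustment over all 12295 rows, threshold 0.05). These adjusted p-values are those printed. A second fit centred each library on the median of the 29 genes. The fit was tested on simulated data. Values given as ± are SD over 3 libraries or, where named, SE of the fit. The members and lists were chosen with earlier results of these data known.

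The rule for named genes took the 5 largest falls, every gene that was higher or did not pass, the 3 nearest the median, the 5 most abundant, the pair Rps27 and Rps27l, and up to 3 per direction of each related list. The other genes of the 29 are given for completeness. Head and body follow the known place of each protein. Coordinates, coding sequences and snoRNA genes came from GENCODE M21 on GRCm38, which matched 96.6% of symbols to a single gene. A copy is any annotated gene that holds, in sense, at least 1 of the 50-base coding windows of the gene and is named in the files. Promoters came from RefSeq on GRCm38.p6, with 1 start kept per gene by the length of its run. Alternatives were pseudocounts of 0.1 and 0.01, other filters, 5 kinds of scaling, no trend, a block for the replicate number, and fits without each library in turn. Sums with copies and limma's treat test against a 1.2-fold change were chosen after seeing the data. Python 3.11.15, pandas 2.3.3 and Biopython 1.88 were used for tables and alignments, and matplotlib 3.10.9 for figures. No count test was run on these values.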

Additional observations from a re-analysis of the deposited data

How the results depend on the processing

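The count of small subunit genes lower in MHCII-hi was 26 or 27 in every alternative, and the same 26 genes were among them. The count higher was 1 in place of 2 at an equal library sum and in treat against 1.2-fold, where Rps26 was lost. It was 3 after removal of the length and GC trend, where Rps24 passed as higher. The medians of the 29 genes and of all rows were -0.98 and -0.18 at an equal sum, and -0.63 and -0.03 after removal of the length and GC trend. Over all rows, 2210 were higher at a mean of at least 5 FPKM and 1594 higher and 2128 lower in treat, and 2541 higher and 6234 lower at an equal sum, against 3348 higher and 4982 lower. Relative to the large subunit centre, 6 genes were above and 22 below, and with copies summed 6 above and 20 below, against 15 and 10. Large subunit genes higher numbered 0 without the filter, at an equal sum, without the trend and with the replicate block, 2 after removal of the length and GC trend, and 0 to 1 with a library left out. After that removal 1 mitochondrial, 1 assembly and 1 initiation gene were higher, as was 1 initiation gene under median-of-ratios scaling, and 0 to 1 assembly genes with a library left out. The share of FPKM was 2.08% in MHCII-hi without immunoglobulin segments, and 2.18% in MHCII-hi and 3.77% in MHCII-lo without mitochondrial genes.

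Of 899 checks of single genes, 844 kept their direction and side of the threshold. Rps24 changed to 0.12 without the length and GC trend. Relative values changed sign under the large subunit centre for Rps2 (-0.30), Rps3a1 (-0.15), Rps4x (-0.29), Rps7 (-0.11), Rps12 (-0.14), Rps13 (-0.39), Rps15a (-0.10), Rps18 (-0.31), Rps23 (-0.35), Rps27 (-0.25) and Fau (-0.16). They did so under the mean of the 29 genes for Rps2 (-0.046), Rps4x (-0.030), Rps13 (-0.14), Rps18 (-0.050) and Rps23 (-0.093), and without the length and GC trend for Rps2 (-0.053) and Rps25 (0.040). With copies summed they did so for Rps3a1 (-0.19), Rps4x (-0.32), Rps7 (-0.090), Rps12 (-0.39), Rps13 (-0.29), Rps15a (-0.18), Rps18 (-0.33), Rps23 (-0.40) and Fau (-0.20), and with a library left out for Rps13 (from -0.020 to 0.025). These genes have no fixed side, and the cause was not tested. Same-numbered libraries deviated together with correlations of 0.06, 0.0019 and 0.08, so the numbers were not taken as pairs. With the replicate block 2 small subunit genes were higher and 26 lower. Depth is unknown, so no counting error is given.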
